A study of Mus musculus with 20 samples.

Results

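The genes of bile acid synthesis and of its feedback control were followed in mouse liver across 2 genotypes and 2 ages. The set held 10 genes, taken by symbol from the 19505 genes measured: the hydroxylases Cyp7a1, Cyp8b1, Cyp27a1 and Cyp7b1, the conjugating enzymes Slc27a5 and Baat, and the feedback genes Fgfr4, Klb, Nr0b2 and Nr1h4. All 10 were represented by 1 array feature each. RNA came from whole liver of mice labelled OGTL WT or OGTL KO, aged 4 weeks or 8 weeks, with 5 mice in each of the 4 groups and 1 Clariom S Mouse array per mouse. The series concerns O-GlcNAc transferase (OGT, encoded by Ogt), the enzyme that attaches N-acetylglucosamine to intracellular proteins. The driver of the deletion, the mouse strain and the sex are not given in the sources used here.

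Bile acids are made from cholesterol in hepatocytes. The classic route starts with Cyp7a1, its rate-limiting enzyme, and Cyp8b1 directs its product toward cholic acid; the alternative route starts with the side-chain hydroxylase Cyp27a1 and goes on through the oxysterol hydroxylase Cyp7b1. The bile acyl-CoA synthetase Slc27a5 and the N-acyltransferase Baat then join bile acids to taurine or glycine. Synthesis is repressed by bile acids themselves, through the nuclear receptor FXR (Nr1h4), which induces SHP (Nr0b2) in liver, and through the intestinal hormone FGF15, which acts on the hepatocyte receptor Fgfr4 together with its co-receptor beta-Klotho (Klb).

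Values are deposited log2 signals, so a log2 difference of 1 is a 2-fold difference. Calls rest on limma with Benjamini-Hochberg adjustment over the 19505 genes and a threshold of 0.05, and exact p-values are two-sided permutation tests of 5 against 5 arrays, which cannot go below 0.00794. A group mean was called above background when it exceeded the level that 95% of olfactory and vomeronasal receptor genes stayed under, which was a log2 signal of 5.02 to 5.20 depending on the group. Ogt was lower in KO at 4 weeks, with a log2 signal of 8.14 ± 0.53 against 9.57 ± 0.31 in WT (SD, n = 5; adjusted p = 8.82e-05). At 8 weeks it was 9.81 ± 0.21 against 10.08 ± 0.20 and did not pass the test (log2 difference -0.27, adjusted p = 0.529), so the 8-week mice are called "labelled KO" below. Whether the Ogt feature lies inside the deleted part is not given in the sources used here. In 3 arrays at 4 weeks, WT replicate 4 and KO replicates 4 and 5, skeletal muscle transcripts were high: the log2 signal of muscle actin Acta1 was 15.04 to 15.89 there and 4.24 to 6.11 in the other 17 arrays. None of 13 hepatocyte markers measured was called at either age. At 4 weeks all 13 differences were negative (median log2 difference -0.06). Their log2 summed level was then 22.59 to 22.69 in KO, below the 22.73 to 22.78 of WT. At 8 weeks it was 22.58 to 22.71 in mice labelled KO and 22.58 to 22.64 in WT. The group means of all these markers but Hnf4a lay above a log2 signal of 16, the ceiling of a 16-bit scanner. At 8 weeks all 8 cholangiocyte markers measured were higher in mice labelled KO (log2 summed level 10.65 to 13.84 against 8.01 to 9.11 in WT). So were 6 of 10 stellate cell and fibroblast markers (16.72 to 17.62 against 15.05 to 15.81). Of 11 Kupffer cell and macrophage markers 6 were higher (11.77 to 13.22 against 11.44 to 11.64). The Kupffer cell markers Clec4f, Vsig4 and Timd4 had negative log2 differences that were not called (-0.68, -0.39 and -0.76, adjusted p = 0.105, 0.48 and 0.0658). In WT at 8 weeks the cholangiocyte markers Krt19, Epcam, Cldn7 and Cd24a were not above background. At 4 weeks 1 cholangiocyte marker, 3 Kupffer cell and macrophage markers and no stellate cell marker were called higher in KO. Over all genes 4.70% were called higher at 4 weeks and 4.94% at 8 weeks. In bulk liver, fewer hepatocytes and less RNA per hepatocyte cannot be told apart, and the part of these markers in the results was not tested.

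For 6 of the 10 genes RefSeq (GRCm38.p6) gave a start site, and 250 bases before it were searched on both strands for 6 motifs. The motifs were the LRH-1 cores AAGGTCA and AAGGCCA, the FXR inverted repeat (AGGTCA and TGACCT with 1 base between), the HNF4A motif CAAAGTCCA, the TATA box TATAAA and the E-box CACGTG. Printed are the windows of Fgfr4, which had the largest genotype difference at 4 weeks, of Cyp8b1, lower at 8 weeks, and of Nr0b2, the repressor of the loop. Each runs 5′ to 3′ toward the start, and capitals mark motif matches:
Fgfr4, chr13:55152568-55152817, plus strand: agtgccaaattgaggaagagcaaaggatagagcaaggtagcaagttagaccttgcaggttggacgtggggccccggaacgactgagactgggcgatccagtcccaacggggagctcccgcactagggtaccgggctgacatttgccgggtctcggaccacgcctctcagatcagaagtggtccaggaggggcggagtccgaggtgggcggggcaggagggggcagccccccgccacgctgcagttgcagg
Cyp8b1, chr9:121916306-121916555, minus strand: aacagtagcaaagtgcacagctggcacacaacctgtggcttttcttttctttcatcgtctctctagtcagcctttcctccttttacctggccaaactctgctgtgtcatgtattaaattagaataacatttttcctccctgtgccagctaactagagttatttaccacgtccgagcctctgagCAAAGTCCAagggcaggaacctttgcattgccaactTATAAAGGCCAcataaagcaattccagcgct
Nr0b2, chr4:133553126-133553375, plus strand: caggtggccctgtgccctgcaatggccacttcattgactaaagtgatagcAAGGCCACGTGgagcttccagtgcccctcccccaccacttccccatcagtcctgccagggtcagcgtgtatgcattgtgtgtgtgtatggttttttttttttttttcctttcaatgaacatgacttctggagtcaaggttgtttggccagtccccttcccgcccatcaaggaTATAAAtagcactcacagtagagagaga
The Cyp8b1 window held CAAAGTCCA with its first base 67 bases before the start, found in 0.384% of 32851 mouse promoter windows of this length. It also held TATAAA at 31 bases, overlapping AAGGCCA at 27 bases. The Nr0b2 window held AAGGCCA at 200 bases, overlapping CACGTG at 195 bases, and TATAAA at 28 bases. Among all windows AAGGCCA was found in 5.24%, TATAAA in 12.4% and CACGTG in 6.02%. The Fgfr4 window held no match, as did those of Cyp27a1, Klb and Nr1h4. Over all windows AAGGTCA was found in 4.08% and the FXR inverted repeat in 0.00609%. These matches describe letters in a window and are not measured binding sites.

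At 4 weeks KO livers had lower signals of the FGF15 receptor gene Fgfr4, of the alternative-route enzyme Cyp27a1 and of both conjugating enzymes, Slc27a5 and Baat. Thus 4 of the 10 genes were lower and 0 were higher, while 5.48% of all genes were called lower and 4.70% higher. In all 4 the KO and WT arrays did not overlap, which held in the same direction for 4.49% of all genes. Signals of the classic-route enzymes Cyp7a1 and Cyp8b1 and of FXR did not pass the test. The median log2 difference of the 10 genes was -0.64, against 0.00 over all genes, and 8 of the 10 differences were negative. With array medians set equal Klb was called as well, and 33.2% of all calls were higher in place of 46.2%. Leaving out the 3 muscle-containing arrays gave 3 of 10 lower, without Baat.

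At 8 weeks mice labelled KO had lower Cyp7b1, Cyp8b1 and Baat, while Fgfr4, Cyp27a1 and Slc27a5 did not pass the test. So 3 of the 10 genes were lower and 0 higher, against 1.65% of all genes lower and 4.94% higher. Arrays did not overlap for Cyp7b1 and Baat, and 1.96% of all genes were lower without overlap. The median log2 difference of the 10 genes was -0.37, against -0.04 over all genes, with 9 of 10 negative. The split of all genes depended on scaling: 75.0% of calls were higher as deposited and 48.3% with array medians set equal, which called 856 genes lower in place of 321 and moved the median of all genes by -0.11 on the log2 scale, while the same count of 3 members was lower.

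**Figure D1:**
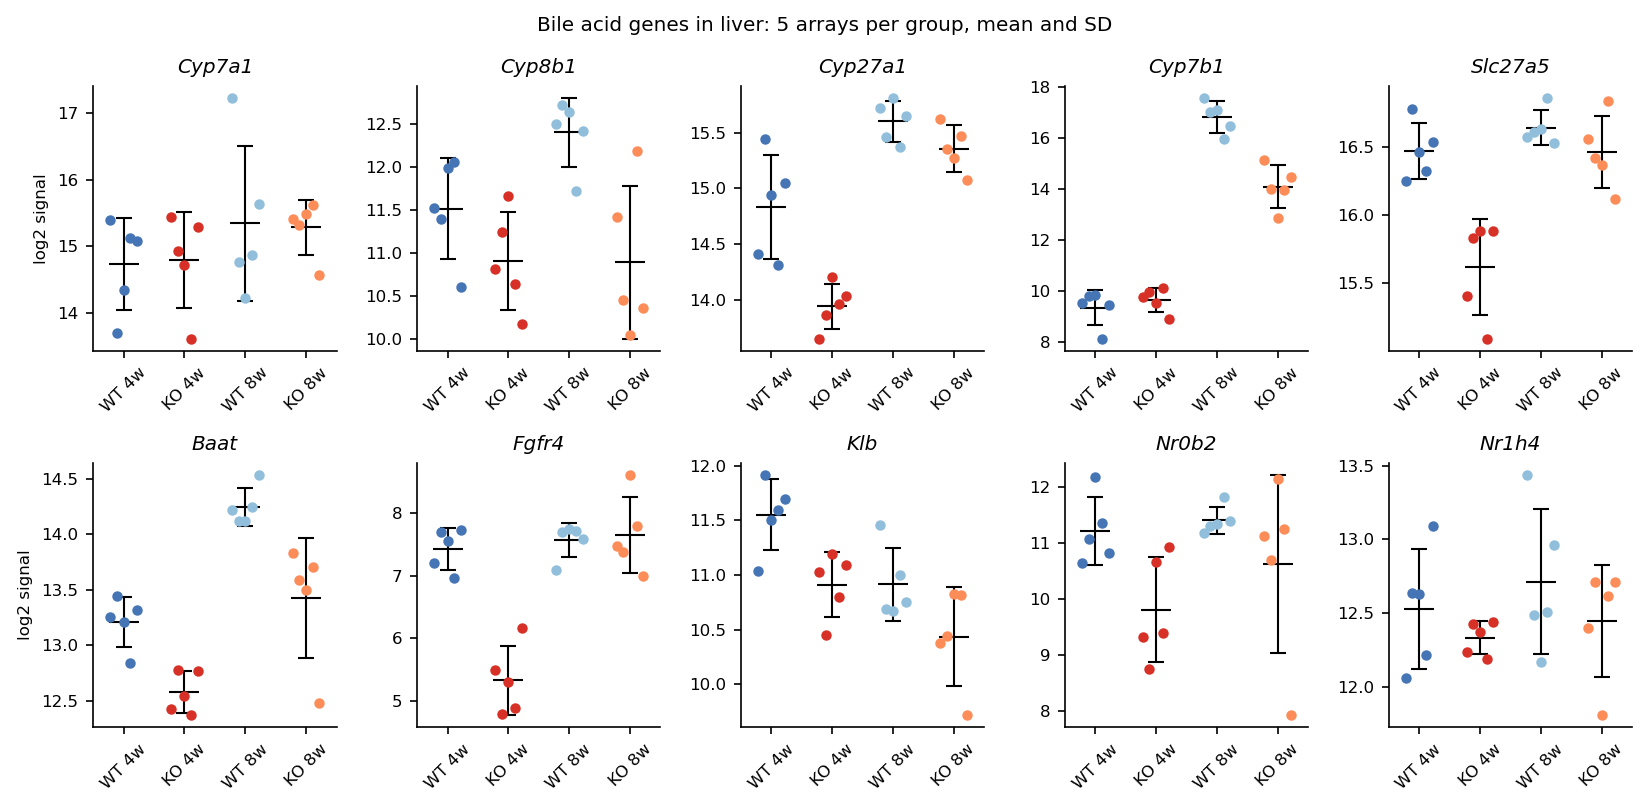
Log2 signal (y axis) of the 10 genes in each of the 20 arrays, 1 panel per gene, grouped along the x axis by genotype and age; points are arrays and lines are group means with SD (n = 5). Fgfr4 is low in all 5 KO arrays at 4 weeks (4.79 to 6.17) and lies between 6.96 and 8.62 in all other groups, and Cyp7b1 lies between 8.13 and 10.12 at 4 weeks and between 12.86 and 17.58 at 8 weeks.

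**Figure D2:**
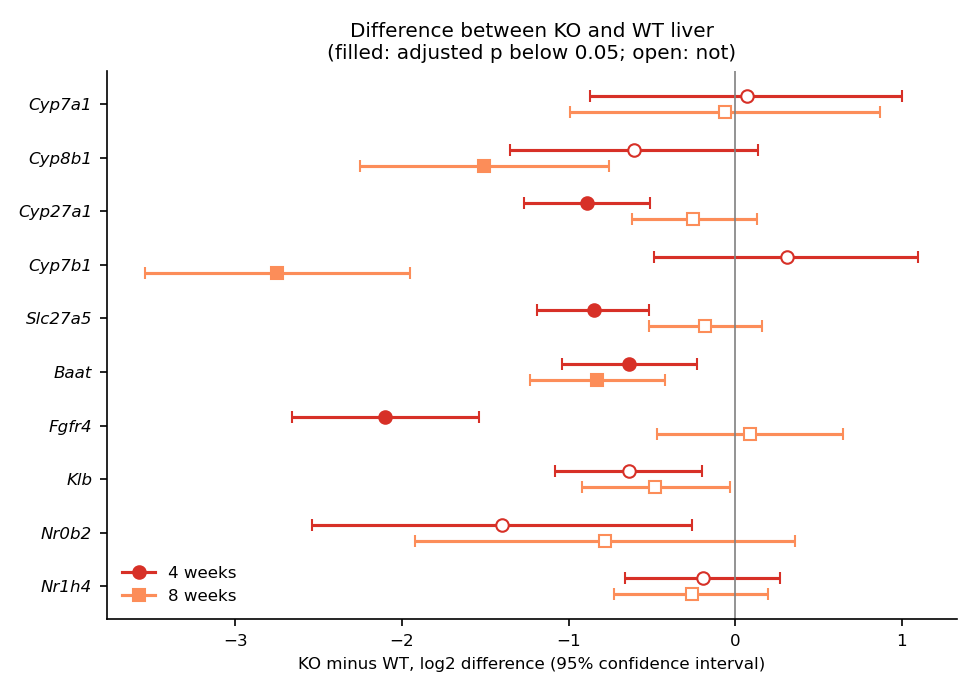
Log2 difference of KO minus WT at 4 weeks and at 8 weeks for the 10 genes, with 95% confidence intervals from limma; filled points passed an adjusted p of 0.05. Fgfr4 stands at -2.10 at 4 weeks and 0.09 at 8 weeks, and Cyp7b1 at 0.31 and -2.75.

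Cyp7a1, the first enzyme of the classic route, showed no called difference. Its log2 signal at 4 weeks spanned 13.70 to 15.40 in WT (median 15.08) and 13.61 to 15.44 in KO (median 14.92), so the ranges nearly coincided. The log2 difference was 0.07 (SE 0.45; adjusted p = 0.956; exact p = 0.873). At 8 weeks the WT arrays spanned 14.22 to 17.23 and those labelled KO 14.57 to 15.62. WT replicate 1 alone lay above 16 there, and the WT group's SD of 1.17 was the widest of the 4 groups. The log2 difference at 8 weeks was -0.06 (95% confidence interval -0.99 to 0.87; adjusted p = 0.967; exact p = 0.952). With an interval that reaches nearly to a 2-fold difference in either direction, smaller differences were not detectable with 5 arrays a group, and the sign at both ages turned in some settings.

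Cyp8b1, the enzyme that adds the hydroxyl group of cholic acid, was lower at 8 weeks. Replicates 1 to 5 of WT had log2 signals of 12.50, 12.72, 12.64, 11.72 and 12.42, and those labelled KO 11.42, 10.45, 10.05, 12.18 and 10.36. The groups overlapped through 1 array, replicate 4 labelled KO, which lay above the lowest WT array. The log2 difference was -1.51 (SE 0.36, interval -2.25 to -0.76; adjusted p = 0.0113; exact p = 0.0159), which is 35.2% of the WT signal. At 4 weeks the log2 signals were 11.52, 11.39, 11.99, 12.06 and 10.61 in WT and 10.81, 11.24, 11.66, 10.64 and 10.18 in KO. The 4-week difference of -0.61 did not pass the test (interval -1.35 to 0.14; adjusted p = 0.348; exact p = 0.143). Nor did the difference between the ages' KO effects, a log2 value of -0.90 (adjusted p = 0.415), so the 8-week call is not shown to be particular to that age. Without the 3 muscle-containing arrays the 4-week log2 difference was -0.14.

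Cyp27a1, the mitochondrial side-chain hydroxylase of the alternative route, was lower in KO at 4 weeks. WT arrays had log2 signals of 14.41, 15.44, 14.94, 14.31 and 15.05, and KO arrays 13.65, 13.86, 14.20, 13.96 and 14.03. Every KO array lay below every WT array, although the highest KO and the lowest WT array were close together. KO was lower by a log2 difference of -0.89 (SE 0.18, interval -1.27 to -0.51; adjusted p = 0.00247; exact p = 0.00794), or 54.0% of the WT signal. The 8-week log2 signals were 15.72, 15.46, 15.81, 15.37 and 15.65 in WT and 15.62, 15.35, 15.27, 15.47 and 15.07 in mice labelled KO, a difference of -0.25 that did not pass the test (interval -0.62 to 0.13; adjusted p = 0.503). The KO effects at the 2 ages differed by 0.64 on the log2 scale, with a raw p of 0.02 that did not hold after adjustment (limma adjusted p = 0.203).

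Cyp7b1, which acts on oxysterols after Cyp27a1, had the widest range of the 10 genes. Its log2 signal at 4 weeks was 9.51, 9.81, 9.84, 8.13 and 9.44 in WT and 9.77, 9.96, 9.52, 10.12 and 8.89 in KO, with WT replicate 4 the lowest. At 8 weeks it was 17.58, 17.04, 17.10, 15.97 and 16.50 in WT and 15.15, 13.99, 12.86, 13.98 and 14.48 in mice labelled KO. Thus the groups interleaved at 4 weeks, and at 8 weeks every array labelled KO lay below every WT array. The 4-week log2 difference was 0.31 (SE 0.38; adjusted p = 0.72; exact p = 0.484). The 8-week difference was -2.75 (SE 0.38, interval -3.54 to -1.95; adjusted p = 8.08e-05; exact p = 0.00794), a signal 14.9% of WT. The change in the KO effect between the ages was itself called (log2 value -3.05, SE 0.54; adjusted p = 0.00326). At 8 weeks 4 WT arrays lay above a log2 signal of 16, the ceiling of a 16-bit scanner, so this part of the scale may be stretched. With values above 16 set to 16 the 8-week log2 difference was -1.90 (adjusted p = 0.00292) and the change between ages -2.21 (adjusted p = 0.0264). Those 4 WT arrays were then tied at 16, beside 15.97 in the last, which narrowed the spread behind these p-values.

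Slc27a5, which activates bile acids with coenzyme A, was lower in KO at 4 weeks. WT arrays had log2 signals of 16.25, 16.78, 16.46, 16.32 and 16.54, and KO arrays 15.40, 15.83, 15.88, 15.09 and 15.88. No KO array reached 16 and every WT array exceeded it. This gave a log2 difference of -0.85 (SE 0.16, interval -1.19 to -0.52; adjusted p = 0.00148; exact p = 0.00794), or 55.3% of WT. Because 15 of the 20 arrays lay above 16, the size depends on that end of the scale: with values above 16 set to 16 it was -0.38. All arrays but those of KO at 4 weeks were then tied at 16. The spread came from that group alone, so the limma adjusted p of 0.0439 there cannot support the call. The 8-week log2 signals spanned 16.53 to 16.86 in WT and 16.12 to 16.84 in mice labelled KO, and the difference of -0.18 did not pass the test (interval -0.52 to 0.16; adjusted p = 0.611). The KO effects at the 2 ages differed by 0.68 on the log2 scale, which did not pass (adjusted p = 0.127).

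Baat, which transfers the activated bile acid to taurine or glycine, was the only one of the 10 genes called at both ages. At 4 weeks its log2 signals were 13.25, 13.44, 13.21, 12.84 and 13.32 in WT and 12.42, 12.78, 12.54, 12.37 and 12.77 in KO, with no overlap. The log2 difference was -0.64 (SE 0.20; adjusted p = 0.0411; exact p = 0.00794), 64.3% of WT. This call was near the threshold: it was lost, with log2 differences of -0.73 to -0.58 over all single omissions, without any 1 of WT replicates 1, 2, 3 or 5 or KO replicates 1, 3 or 4 (adjusted p = 0.0702 to 0.105 there), with the arrays quantile-normalized again (-0.53, adjusted p = 0.113) and without the 3 muscle-containing arrays (-0.72, adjusted p = 0.0639). At 8 weeks the log2 signals were 14.22, 14.12, 14.12, 14.25 and 14.54 in WT and 13.83, 13.59, 13.50, 13.71 and 12.48 in mice labelled KO. Here too every array labelled KO was below every WT array, with replicate 5 far below the rest. The log2 difference was -0.83 (SE 0.20; adjusted p = 0.0106; exact p = 0.00794), 56.3% of WT, and it was -0.59 without that replicate, still called (adjusted p = 0.032). The KO effects at the 2 ages differed by -0.19 (adjusted p = 0.806), a value that did not pass the test.

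Fgfr4, the hepatocyte receptor for FGF15, had the largest 4-week difference among the 10 genes. WT arrays had log2 signals of 7.20, 7.70, 7.55, 6.96 and 7.73, and KO arrays 5.50, 4.79, 5.30, 4.88 and 6.17. All KO arrays lay below all WT arrays, and KO replicates 2 and 4 lay below the background level of 5.04, so the gene was above it in 3 of the 5 KO arrays. The log2 difference was -2.10 (SE 0.27, interval -2.66 to -1.54; adjusted p = 2.78e-05; exact p = 0.00794), a measured signal of 23.3% of WT or 4.29-fold lower. It stayed called when each of the 10 arrays was left out in turn (-2.31 to -1.97) and without the 3 muscle-containing arrays (-2.35, adjusted p = 5.36e-05). By 8 weeks the log2 signals were 7.09, 7.70, 7.75, 7.71 and 7.59 in WT and 7.48, 7.38, 8.62, 7.80 and 7.00 in mice labelled KO, which overlapped. The 8-week log2 difference was 0.09 (interval -0.47 to 0.65; adjusted p = 0.908), and its sign turned with array medians set equal (-0.03) and with quantile normalization repeated (-0.01). The change in the KO effect between ages was called (log2 value 2.19, SE 0.38; adjusted p = 0.003).

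Klb, the co-receptor that FGF15 needs at Fgfr4, had log2 signals of 11.04 to 11.92 in WT (median 11.60) and 10.45 to 11.19 in KO (median 11.03) at 4 weeks. The groups overlapped through WT replicate 1, the lowest WT array. The log2 difference of -0.64 had a raw p of 0.00693 and did not pass the test (limma adjusted p = 0.0613). It passed with array medians set equal (-0.71, adjusted p = 0.0394), with array weights (-0.66, adjusted p = 0.0344), with only the compared groups in the model (adjusted p = 0.0486) and without WT replicate 1 (-0.77, adjusted p = 0.0275). At 8 weeks the arrays spanned 10.67 to 11.46 in WT and 9.72 to 10.83 in mice labelled KO, and the log2 difference of -0.48 was not called (adjusted p = 0.22).

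Nr0b2, whose product SHP represses Cyp7a1 and Cyp8b1, varied most between KO arrays. At 4 weeks its log2 signals were 10.63, 11.07, 12.17, 11.35 and 10.81 in WT and 9.31, 8.75, 10.65, 9.38 and 10.92 in KO. KO replicates 1, 2 and 4 lay below all WT arrays, and KO replicates 3 and 5 reached the WT range. The log2 difference of -1.40 was wide in error (SE 0.55, interval -2.54 to -0.26; exact p = 0.0397) and did not pass the test over all genes (adjusted p = 0.117). At 8 weeks WT arrays spanned 11.17 to 11.81 (SD 0.24) while those labelled KO read 11.11, 10.69, 12.13, 11.24 and 7.92 (SD 1.60), with replicate 5 far below the other KO arrays. The 8-week log2 difference of -0.78 was not called (interval -1.92 to 0.36; adjusted p = 0.475) and was -0.11 without that replicate.

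Nr1h4, the gene of the bile acid receptor FXR, showed the smallest range of group means. At 4 weeks the WT livers gave a log2 signal of 12.53 ± 0.40 and the KO livers 12.33 ± 0.11 (SD, n = 5). At 8 weeks these were 12.71 ± 0.49 and 12.45 ± 0.38. The ranges overlapped at both ages. The log2 differences were -0.19 at 4 weeks (adjusted p = 0.694) and -0.26 at 8 weeks (adjusted p = 0.575).

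Of the 10 genes, Fgfr4 and Cyp7b1 were the ones whose KO effect itself differed between the ages. So 2 of the 10 were called in this test, against 3.05% of all genes, upward for Fgfr4 and downward for Cyp7b1. Both calls held without the 3 muscle-containing arrays, at 2.44 (adjusted p = 0.00183) for Fgfr4 and -2.85 (adjusted p = 0.0053) for Cyp7b1 on the log2 scale, and in each of the 20 single omissions. This test uses the same arrays as the tests at each age and adds no independent data. Replicate 5 labelled KO at 8 weeks was the lowest of its group for 7 of the 10 genes, and for 24.4% of all genes. Replicate 3 labelled KO at 8 weeks had the highest Fgfr4, Klb and Nr0b2 signals of its group and the lowest Cyp7b1, Cyp8b1 and Nr1h4 signals. It was lowest for 21.8% of all genes, and the share of all genes highest there was not computed. For Klb it led replicate 4 only by 10.83 to 10.82, and its Cyp7a1 signal of 15.49 lay inside the group's range. Replicates 1 and 4 of that group were also highest for 3 of the 10 genes each.

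Between 4 and 8 weeks, Cyp7b1, Cyp27a1 and Baat were higher with age in both genotypes, KO at 8 weeks being as labelled. In WT 3 of the 10 genes were called higher and 0 lower, against 3.71% and 5.23% of all genes. In KO 5 were called higher and 0 lower, against 7.85% and 6.78% of all genes, the further genes being Fgfr4 and Slc27a5. Higher without overlap between the ages were 2 of the 10 in WT and 4 in KO, against 3.70% and 4.79% of all genes. Of all calls with age in WT, 41.5% were higher as deposited and 52.0% with array medians set equal. The median log2 change of the 10 genes was 0.41 in WT and 0.83 in KO, and over all genes 0.04 and 0.02.

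The signal of Cyp7b1 rose by a log2 value of 7.49 in WT (SE 0.38, interval 6.70 to 8.28; adjusted p = 1.68e-11), 180-fold on the deposited scale, and by 6.65 with values above 16 set to 16. In KO it rose by 4.44 (interval 3.65 to 5.23; adjusted p = 9.19e-08), or 21.7-fold. The 2 ages did not overlap in either genotype. Cyp27a1 rose by 0.77 in WT (adjusted p = 0.00773), where the ages overlapped, and by 1.42 in KO (adjusted p = 1.55e-05), where they did not. Baat rose by 1.04 in WT (adjusted p = 0.00119) without overlap and by 0.85 in KO (adjusted p = 0.0048) with overlap.

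The measured signal of Fgfr4 rose with age in KO by a log2 value of 2.33 (5.02-fold, adjusted p = 5.07e-06) and changed by 0.14 in WT (adjusted p = 0.835). KO replicates 2 and 4 at 4 weeks lay below the background level, so the fold depends on that level. The Fgfr4 group means at 8 weeks in both genotypes and at 4 weeks in WT lay between 7.43 and 7.66 on the log2 scale, so KO at 4 weeks was the group apart. Slc27a5 followed the same order, with 0.85 in KO (adjusted p = 0.00102) and 0.17 in WT (adjusted p = 0.609). With values above 16 set to 16 the KO value was 0.38. All Slc27a5 arrays but those of KO at 4 weeks were then tied, so the limma adjusted p of 0.0339 there cannot support the call. Cyp8b1 had an age difference of 0.89 in WT (raw p = 0.0223, exact p = 0.0238; limma adjusted p = 0.138) and of -0.01 in KO (adjusted p = 0.987). Klb was the only one of the 10 with a negative age difference in WT, -0.64 on the log2 scale (adjusted p = 0.067), which passed without WT replicate 1 of either age (4 weeks adjusted p = 0.0331, 8 weeks adjusted p = 0.0264). For Cyp7a1 the age differences were 0.62 in WT (adjusted p = 0.469) and 0.49 in KO (adjusted p = 0.549). Nr0b2 differed by 0.19 in WT and 0.82 in KO (adjusted p = 0.38), and the KO value was 1.49 and called (adjusted p = 0.0116) without replicate 5 labelled KO at 8 weeks. Nr1h4 differed by 0.19 and 0.12.

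**Figure D3:**
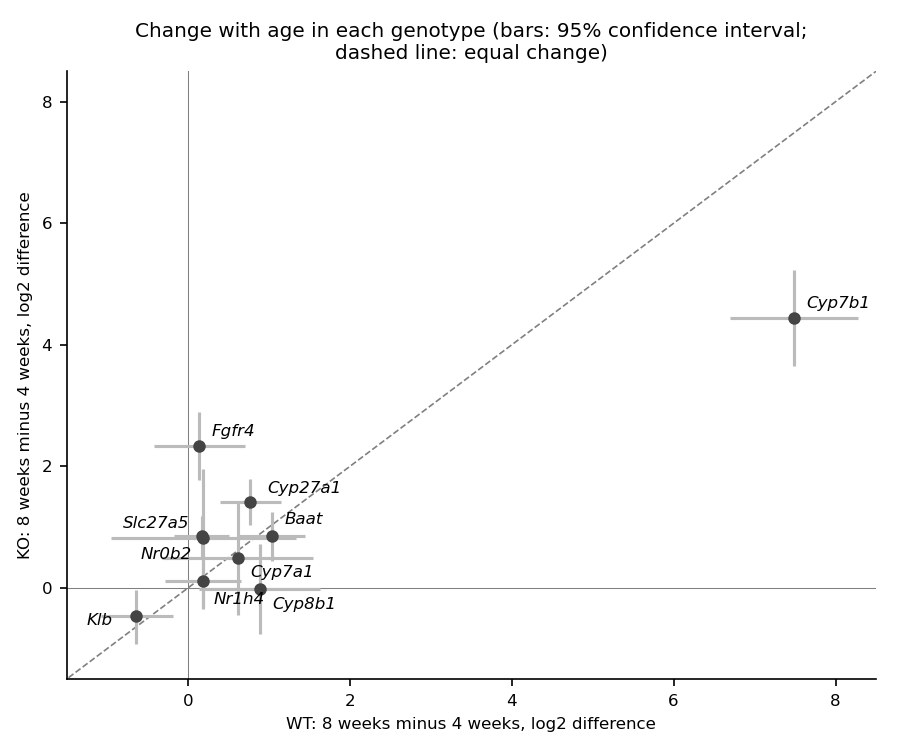
Change from 4 to 8 weeks in WT (x axis) against the change in KO (y axis), both as log2 differences, for the 10 genes, with 95% confidence intervals; the dashed line marks equal change. Cyp7b1 lies below the line (7.49 in WT, 4.44 in KO) and Fgfr4 above it (0.14 in WT, 2.33 in KO), and the other 8 genes lie between -1 and 2 on both axes.

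The neighbours of these genes in the pathway were counted from lists. Over all genes 5.48% were called lower and 4.70% higher at 4 weeks, and 1.65% lower and 4.94% higher at 8 weeks. Of 16 other bile acid synthesis enzymes measured, 3 were lower and 1 higher in KO at 4 weeks, with a median log2 difference of -0.36, and 0 were called at 8 weeks (median -0.31). The lower ones were Hsd3b7 (log2 difference -0.94, adjusted p = 0.011), which oxidises the sterol ring early in both routes, Cyp39a1 (-0.82, adjusted p = 0.0381), another oxysterol hydroxylase, and Cyp2c70 (-0.53, adjusted p = 0.0382), which makes muricholic acids in mice. Hsd3b7 arrays did not overlap, with 12.50 ± 0.21 in KO and 13.44 ± 0.51 in WT. Scp2, the sterol carrier protein with thiolase activity, was higher (0.57, adjusted p = 0.0451). The calls of Cyp2c70 and Scp2 were lost without the muscle-containing arrays (adjusted p = 0.0785 and 0.153) and with values above 16 set to 16, where all their 4-week arrays are tied. The ring reductase Akr1d1 had a log2 difference of -0.39 (adjusted p = 0.509).

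Of 29 nuclear receptors and regulators measured, 5 were lower and 0 higher in KO at 4 weeks (median log2 difference -0.28), and 1 was lower at 8 weeks (median -0.11). The shares of all genes called lower were 5.48% at 4 weeks and 1.65% at 8 weeks. Nr5a2, the gene of LRH-1, an activator of Cyp7a1 and Cyp8b1, was lower at 4 weeks without overlap, with log2 signals of 10.65 to 11.12 in KO (median 10.84) against 11.56 to 12.17 in WT. Its log2 difference was -1.08 (SE 0.14; adjusted p = 2.70e-05) at 4 weeks and -0.27 (adjusted p = 0.295) at 8 weeks. The change between the ages was called (0.81, adjusted p = 0.0261) but not with array medians set equal (0.77, adjusted p = 0.0535). Also lower at 4 weeks were the insulin-regulated factor Foxo1 (-1.28, adjusted p = 0.00218), the FXR partner Rxra (-0.75, adjusted p = 0.00484) and the xenobiotic receptor CAR, Nr1i3 (-1.47, adjusted p = 0.00575), each without overlap. At 8 weeks the hepatocyte factor Cebpa was lower (-0.77, adjusted p = 0.0349). Hnf4a, which activates Cyp7a1 and Cyp8b1, was 13.45 ± 0.46 in KO and 13.73 ± 0.26 in WT at 4 weeks, a log2 difference of -0.28 that did not pass (adjusted p = 0.574).

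Around the FGF15 receptor, 18 signalling genes were measured. In KO at 4 weeks 2 were lower and 1 higher, against 5.48% and 4.70% of all genes. At 8 weeks 0 were lower and 1 higher, against 1.65% and 4.94%. Fgf15 itself, normally an intestinal gene, was not above background in KO at either age or in WT at 8 weeks. The hepatic hormone gene Fgf21, which also uses Klb, had log2 signals of 5.38, 7.22, 7.65, 6.87 and 5.15 in KO at 4 weeks, while all WT arrays lay between 4.05 and 4.40. The WT mean was not above background, so the difference was at least 2.69-fold (adjusted p = 3.48e-04), and at 8 weeks neither group mean was above background. The related receptor Fgfr2 was lower (-0.57, adjusted p = 0.0423), as was the kinase Map2k1 (-0.52, adjusted p = 0.046), both at 4 weeks, and Fgfr3 was higher at 8 weeks (1.43, adjusted p = 0.0038). The calls of Fgfr2 and Map2k1 were lost with quantile normalization repeated (adjusted p = 0.0532 and 0.0756).

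Among 15 further FXR targets measured, 1 was lower and 1 higher in KO at 4 weeks, and 0 were called at 8 weeks. The 4-week counts were near the shares over all genes, 5.48% lower and 4.70% higher. Fetub, which encodes a plasma protease inhibitor, was lower at 4 weeks (-0.97, adjusted p = 1.85e-04) with no overlap. The canalicular phospholipid transporter Abcb4, also one of 14 bile acid transport genes, was higher (0.86, adjusted p = 0.0463), a call lost with array medians set equal (adjusted p = 0.0669). The bile salt export pump Abcb11 had log2 differences of -0.45 at both ages (adjusted p = 0.126 and 0.167), and the basolateral transporter subunit Slc51b of 0.47 and 0.31 (adjusted p = 0.346 and 0.599). At 8 weeks the WT mean of Slc51b, 4.86, was not above background. Of the 14 transport genes 1 was higher and 0 lower at 8 weeks, near the shares over all genes, 4.94% higher and 1.65% lower. This was the efflux transporter Abcc4, higher in mice labelled KO (0.57, adjusted p = 0.0361), and its call too was lost with array medians set equal (adjusted p = 0.0722).

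**Figure D4:**
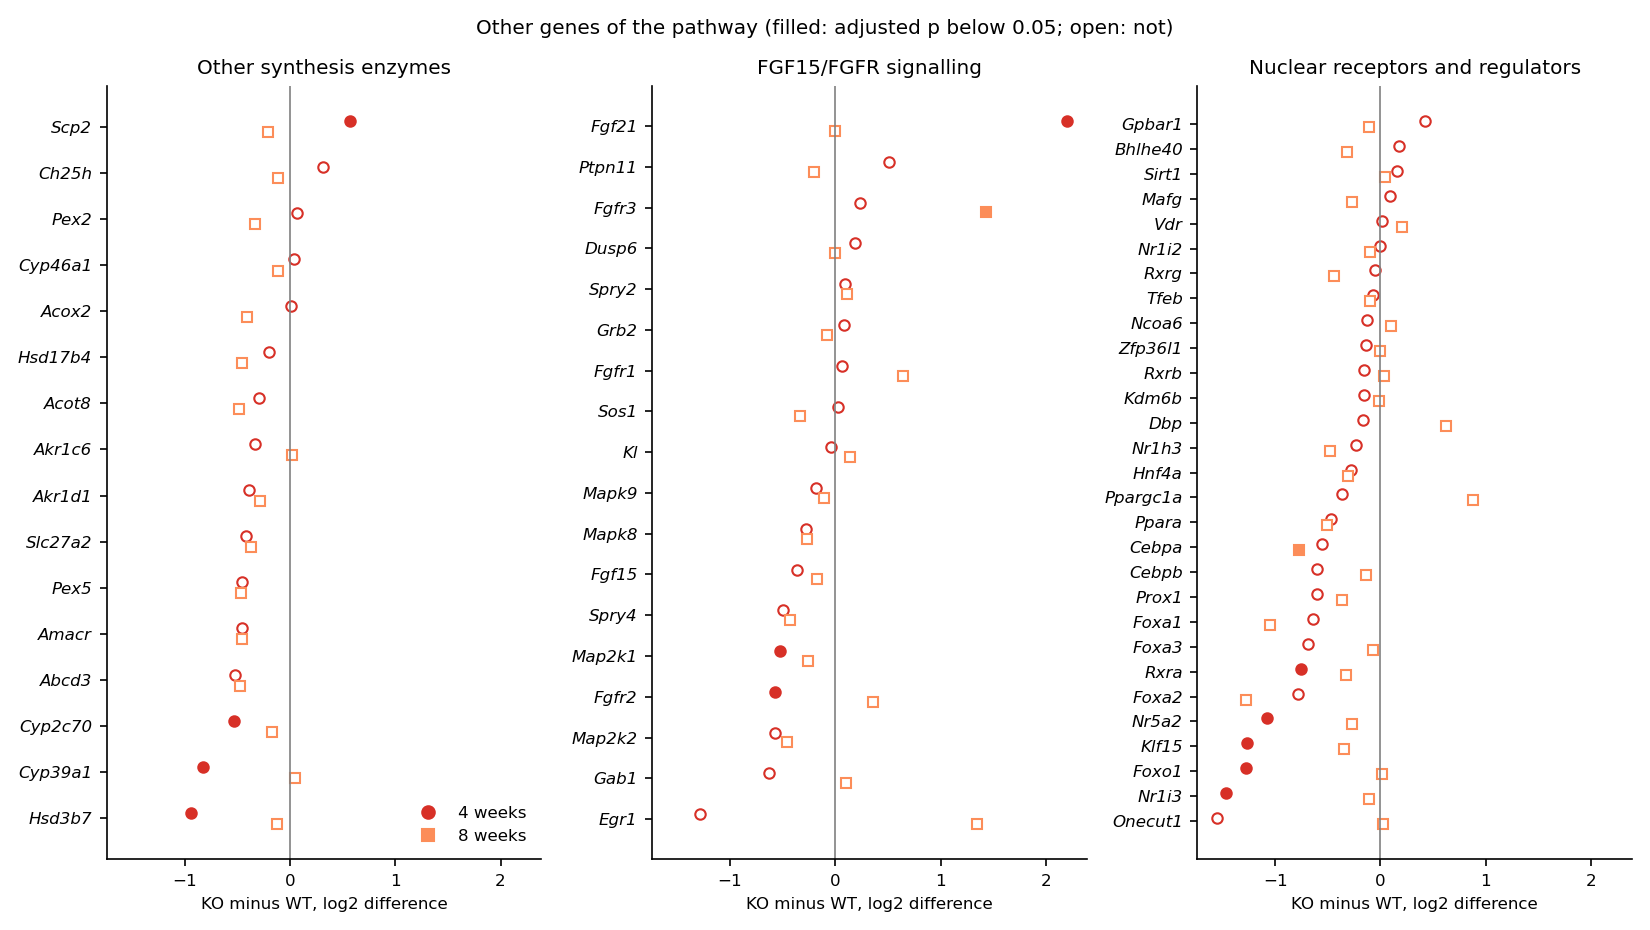
Log2 difference of KO minus WT (x axis) for each measured gene of 3 pathway lists (y axis), with circles for 4 weeks and squares for 8 weeks, filled where the adjusted p was below 0.05. The Fgf21 point at 4 weeks is the fitted value against a WT group at background. Filled circles mark 4 of 16 further synthesis enzymes, 3 of 18 signalling genes and 5 of 29 regulators at 4 weeks, when 4.70% of all genes were called higher and 5.48% lower.

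Cyp7b1 is known as a male-biased gene of mouse liver, and a list of 17 such genes measured, Cyp7b1 among them, was set beside it. From 4 to 8 weeks 16 were higher in WT (median log2 change 4.06) and 9 in KO (median 1.37), against 3.71% and 7.85% of all genes. In KO at 4 weeks 6 were higher and 0 lower (median log2 difference 1.01), against 4.70% and 5.48% of all genes. At 8 weeks 0 were higher and 5 lower in mice labelled KO (median -1.13), against 4.94% and 1.65% of all genes. Cyp7b1 is itself among the 5. The list was chosen with earlier results of these data known, so its counts are a description and add no independent support. The 8-week genes next to Cyp7b1 were Susd4 (log2 difference -3.85, adjusted p = 1.71e-07), Selenbp2 (-2.67, adjusted p = 4.93e-06), Ugt2b38 (-1.29, adjusted p = 0.0137) and Moxd1 (-1.36, adjusted p = 0.0146). At 4 weeks Elovl3 (5.38, adjusted p = 1.19e-04), Mup20 (4.26, adjusted p = 5.27e-06), Gstp1 (2.48, adjusted p = 1.08e-05) and Cyp2u1 (1.63, adjusted p = 7.75e-04) were higher in KO, where Cyp7b1 at 0.31 was not called. The WT arrays of Elovl3 spanned 3.46 to 8.26, and the lowest KO array read 8.67. WT replicates 1 and 4 lay below the background level of 5.02, so the size for Elovl3 depends on that level. All KO arrays of Mup20 lay above a log2 signal of 16, and with values above 16 set to 16 its difference was 1.99. All Mup20 arrays but those of WT at 4 weeks were then tied, so the limma adjusted p of 0.00559 there cannot support the call. Of these, Mup20, Gstp1, Selenbp2 and Ugt2b38 have near-identical paralogs that the array may not separate.

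The genes whose log2 signals ran most alike those of a member over the 20 arrays were ranked by Pearson correlation, which the shared group differences of the same arrays enter. Closest to Cyp7b1 were Nox4 (r = 0.971), Slc15a5 (0.964) and Aox3 (0.963). The 4-week group means of Nox4 and Slc15a5 were not above background in either genotype. Nearest to Fgfr4 were Ivd (0.946), Sema4g (0.944) and Dpyd (0.937). For Slc27a5 they were Hint2 and Masp1 (both 0.942) and Aldh6a1 (0.931), for Cyp27a1 Mettl26 and Gpr108 (both 0.943) and Abhd3 (0.942), and for Baat Pcsk6 (0.919), Zhx1 (0.914) and Txndc15 (0.912). Values were lower for Nr0b2, with Shmt1 at 0.863, for Klb, with Uqcrfs1 at 0.821, and for Cyp8b1, where the first gene, the olfactory receptor Olfr802 at 0.776, was not above background. Cyp7a1 and Nr1h4 were not ranked because their group means spanned less than 1 log2 unit.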

How the data were processed

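Total RNA from 20 livers was hybridised to Clariom S Mouse arrays. The authors deposited log2 signals made with RMA in Affymetrix Expression Console, per the submitters' processing notes; versions and genome build are not given in the sources used here. Values ran from 2.32 to 19.85 and were used as deposited; those above 16 exceed a 16-bit scanner's log2 ceiling, and how they arose is not given. Array medians lay between 5.50 and 5.72, mean correlations within groups between 0.976 and 0.990, and no 2 arrays were identical. The number of arrays limits the precision, and no depth applies.

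Of 22206 features, 19572 had 1 gene symbol and 2634 had none or several; for 55 symbols with several features the one with the highest mean was kept, leaving 19505 genes. Groups came from the genotype and age labels. The models held 4 group means and used limma 3.58.1 (lmFit and eBayes, 16 residual degrees of freedom) under R 4.3.3 and tested on simulated data. The comparisons were KO against WT at each age, the difference between these, and 8 against 4 weeks in each genotype. Background was the 95th percentile of group means of 1399 olfactory and vomeronasal receptor genes.

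All 10 members are named in every comparison; from each list at most 4 called genes per comparison, by smallest adjusted p, and 9 genes described beside a member are named. The members and lists were chosen with earlier results of these data known. Likeness was ranked for members whose group means spanned at least 1 log2 unit. Alternatives were other scaling, filters, weights, models and omitted arrays. The labels state separate mice; scan dates and batches are not given in the sources used here.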

Additional observations from a re-analysis of the deposited data

Results flagged for a closer look

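In 9 of 160 sets of 5 arrays, 1 array stood apart by Dixon's test (gap to the nearest array over the whole range, 95% critical value); chance gives about 1 in 20. Replicate 5 labelled KO at 8 weeks stood apart for Cyp7a1 (log2 signal 14.57, the others 15.32 to 15.62), Baat (12.48, others 13.50 to 13.83) and the ring reductase Akr1d1 (12.80, others 14.43 to 14.75). In the same group, replicate 4 was low for Hnf4a (12.89, others 13.52 to 13.74) and replicate 3 for Abcb4 (13.76, others 14.43 to 14.69). In WT, replicate 4 at 4 weeks, 1 of the muscle-containing arrays, was low for Cyp7b1 (8.13, others 9.44 to 9.84), replicate 1 at 8 weeks was low for Fgfr4 (7.09, others 7.59 to 7.75) and replicate 5 at 4 weeks was high for Cebpa (11.82, others 10.67 to 10.96). KO replicate 4 at 4 weeks, another muscle-containing array, was high for Abcc4 (6.82, others 6.29 to 6.40).

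The KO effect differed between the ages, as the log2 effect at 8 weeks minus that at 4 weeks, for Cyp7b1 (-3.05, adjusted p = 0.00326) and Fgfr4 (2.19, adjusted p = 0.003). It also differed for Ogt (1.16, adjusted p = 0.0307), Nr5a2 (0.81, adjusted p = 0.0261), Fgf21 (-2.20, adjusted p = 0.0205), Fgfr2 (0.93, adjusted p = 0.0448) and Fetub (0.78, adjusted p = 0.0446). The value for Fgf21 is the fitted one and rests on groups at background. Among the male-biased genes it differed for Elovl3 (-6.85, adjusted p = 0.00193), Mup20 (-4.19, adjusted p = 0.00159), Susd4 (-3.86, adjusted p = 6.72e-05), Selenbp2 (-3.68, adjusted p = 5.41e-05), Gstp1 (-3.31, adjusted p = 1.52e-04) and Cyp2u1 (-2.36, adjusted p = 0.00276). The value for Elovl3 depends on WT replicates 1 and 4 at 4 weeks, which lay below background. With values above 16 set to 16 the value for Mup20 was -1.99 and its call was lost (adjusted p = 0.0912), with all arrays but those of WT at 4 weeks tied. The calls of Nr5a2, Fgfr2 and Fetub were lost with array medians set equal (adjusted p = 0.0535, 0.0615 and 0.0645) and Fetub's also without the muscle-containing arrays (adjusted p = 0.123).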

How the results depend on the processing

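For the 10 members, 465 values under alternatives other than single omissions kept their direction and side of the threshold, 3 lost a call, 4 gained one and 8 uncalled values turned sign; the causes were not tested. With array medians set equal, 856 of all genes were lower at 8 weeks (321 as deposited) and the share of calls that were higher moved from 46.2% to 33.2% at 4 weeks, 75.0% to 48.3% at 8 weeks and 41.5% to 52.0% with age in WT; the log2 difference turned for Cyp7a1 at 4 weeks (-0.01), Susd4 (-0.06) and Moxd1 (-0.03) at 4 weeks, Fgfr4 (-0.03), Cyp39a1 (-0.06), Foxo1 (-0.10) and Mup20 (-0.04) at 8 weeks, and Abcb11 between ages (-0.04). With quantile normalization repeated it turned for Susd4 at 4 weeks (-0.01), Cyp7a1 (0.02), Fgfr4 (-0.01) and Foxo1 (-0.01) at 8 weeks, and Abcb11 between ages (-0.06). With array weights 1 member, Klb, was lower with age in WT, and values turned for Susd4 at 4 weeks (-0.02), Cyp7a1 at 8 weeks (0.11) and Nr1h4 between ages (0.02). Values above 16 set to 16 turned Cyp7a1 at 8 weeks (0.18) and between ages (0.12), and leaving out the muscle-containing arrays turned Hnf4a between ages (0.16).

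Over single omissions, members lower with age in WT numbered 0 to 1 (1 without WT replicate 1 of either age), genes higher with age in WT 472 (without WT replicate 4 at 4 weeks) to 733, genes lower at 8 weeks 199 (without replicate 5 labelled KO; 203 without WT replicate 3 and 207 without replicate 2 labelled KO) to 332, and genes whose KO effect rose between ages 247 (without replicate 1 labelled KO at 8 weeks; 251 without KO replicate 2 at 4 weeks) to 528. Ranges that crossed 0 were those of Cyp7a1 at 4 weeks (-0.19 to 0.36), at 8 weeks (-0.34 to 0.41) and between ages (-0.42 to 0.34), Fgfr4 at 8 weeks (-0.15 to 0.25), Nr1h4 (-0.21 to 0.11) and Baat (-0.29 to 0.04) between ages, and Cyp8b1 with age in KO (-0.34 to 0.20).

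Replicate numbers were not taken to pair the mice, since not every same-numbered pair of WT and KO arrays had deviations correlated over 0.1: 4 of 5 pairs did at 4 weeks (-0.15 to 0.48) and 1 of 5 at 8 weeks (-0.18 to 0.14), and 2 and 1 of 5 arrays correlated best with their own number. With the replicate block 818 genes were higher and 986 lower at 4 weeks (917 and 1068 without it), 912 and 258 at 8 weeks, and among members only the 4-week call of Baat was lost (adjusted p = 0.0707).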
